A study of Mus musculus with 6 samples.

Results

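Imprinted genes were examined in Ink4a-/- murine astrocytes that carried an empty vector or overexpressed JAG1. A list of 40 mouse genes known from the literature as imprinted in at least some tissue was matched by gene symbol, and 39 of them were found among the 23282 gene rows of the deposited tables. The gene Mirg was not analysed here. Genes entered by name, by a rule that uses no measured value, though the list was drawn up with earlier results of these data known. Both groups were the same astrocyte line from brain, which the study names Ink4a/Arf-/-, after a tumor suppressor locus. The control cells were transfected with pcDNA3.1-puro and are labelled WT for the genotype, and the JAG1-overexpressing cells were transfected with pcDNA3.1-JAG1-puro. The age and sex of the source animals are not given in the sources used here. Each group held 3 libraries, made with the QuantSeq 3' mRNA kit. It sequences near the poly(A) tail, so that reads do not rise with transcript length and CPM (read counts per 1e+06 normalized reads) can be set side by side between genes. No source used here states whether the 3 libraries came from separate transfections, so the p-values measure only the spread between these libraries, which may be technical. Reads assigned to genes numbered 20489062, 18889751 and 18952552 in control and 20071276, 14341634 and 16442278 in JAG1-overexpressing libraries. The submitters' processing notes name the builds GRCm38 and mm10, and gene positions are those of the RefSeq annotation of GRCm38.p6.

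An imprinted gene is transcribed mainly from the copy of 1 parent. For most such genes, though not all, this is set in the germ line by DNA methylation at a control region and kept through cell division. Imprinted genes lie in domains, in which a single control region governs several genes, often through a long noncoding RNA. Many of them act in fetal growth, placenta and brain. The tables count reads per gene without separating the parental copies, so the values below are levels and not imprinting.

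The label of the cells was compared with marker genes. Jag1 had 182, 201 and 214 reads in the control libraries and 304, 197 and 227 in the JAG1-overexpressing libraries. Relative to depth it rose by 0.46 on the log2 scale (SE, the standard error, 0.11; adjusted p = 0.00446, edgeR quasi-likelihood), with no overlap between the groups. Whether RNA from the JAG1 plasmid was counted on this row is not given in the sources used here. The rise therefore need not be the size of the overexpression. Cdkn2a, the gene of the Ink4a/Arf locus, had at most 5 reads in any library. Of 12 astrocyte markers, 6 had at most 3 reads in every library, namely Gfap, Aqp4, Slc1a2, Slc1a3, Fabp7 and Atp1b2. The other 6 were detected, and all 6 were lower in JAG1-overexpressing cells. Sox9 was the most abundant in control, and Gja1, the gap junction protein connexin 43, in JAG1-overexpressing cells. Sox9, a transcription factor of glial cells, fell by 3.33 on the log2 scale (SE 0.07, adjusted p = 5.31e-11). The summed level of the astrocyte markers was 337, 358 and 399 CPM in the control libraries and 135, 123 and 137 CPM in the JAG1-overexpressing libraries. In bulk RNA, fewer cells of a type and less RNA per cell cannot be told apart.

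The imprinted genes fell into 3 classes by their reads. A gene was called silent when no library had more than 3 reads, or 0.148 to 0.206 CPM by library. This limit allows for counting error alone, because PCR copies of 1 molecule may be counted more than once. Of the 39 genes, 14 were silent, 4 were low and 21 had enough reads to be tested, so that 53.8% of the imprinted genes and 50.3% of all rows were tested. The silent share was 35.9% of the imprinted genes and 41.1% of all rows. The silent genes included most listed genes of the Dlk1-Dio3 domain on chromosome 12 and all 3 of the Peg3 domain on chromosome 7. Dlk1, a noncanonical NOTCH ligand, had 0 reads in all 6 libraries, Rian and Rtl1 had at most 1 read in any library, and the noncoding RNA Meg3, which was low rather than silent, had at most 4. Peg3, a zinc finger protein, had at most 1 read, and Usp29 and Zim1 had 0. H19, the noncoding RNA that is transcribed next to Igf2, had 1 read in 1 control library and 0 elsewhere, and Igf2 itself had at most 1. Of the growth restricting genes, Cdkn1c, an inhibitor of cyclin-dependent kinases, had at most 1 read and Phlda2 had 0. Plagl1, a zinc finger factor that binds other imprinted genes, had at most 3 reads. Ascl2 and Ppp1r9a had at most 2 reads, and Ndn and Magel2, both of the MAGE family, had 0. A total of 0 reads in a library limits a gene to 3 reads there and does not show that it is absent. The low genes were Meg3, Asb4, Grb10 and Nnat, of which Nnat and Grb10 had at most 5 and 4 reads.

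**Figure D1:**
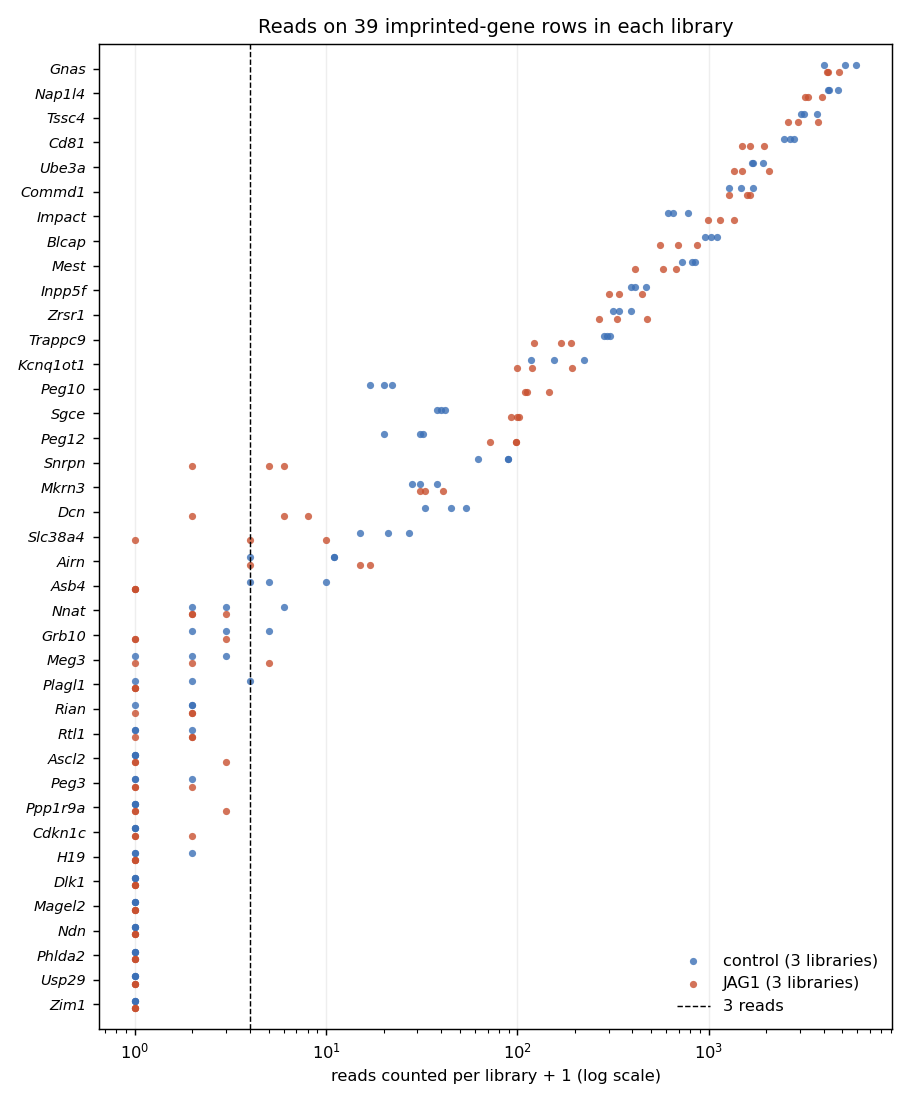
Reads per library plus 1 (horizontal axis, log scale) for the 39 imprinted genes, ordered by their total; points are single libraries, blue for control and red for JAG1-overexpressing, and the dashed line marks 3 reads. The lower part of the plot holds the 14 silent genes, while Peg10, Sgce and Peg12 have red points to the right of blue and Snrpn and Dcn have them to the left.

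Among the 21 tested imprinted genes, Peg10, Peg12, Sgce and Impact were higher in JAG1-overexpressing astrocytes and Snrpn, Dcn, Slc38a4, Trappc9, Cd81, Blcap and Mest were lower. These 11 calls at an adjusted p under 0.05 are 52.4% of the tested imprinted genes, beside 55.1% of all 11712 tested genes. The 4 higher genes stand beside a background of 27.4% of tested genes higher, and the 7 lower genes beside 27.7% lower. The median log2 fold change was −0.01 over the imprinted genes and 0.00386 over all tested genes, and the median size without sign was 0.37 and 0.31. At a limit of 2-fold, 3 imprinted genes were higher and 3 lower, where the background was 5.46% higher and 8.49% lower. The groups were fully separated for 11 of the 21 genes, with JAG1-overexpressing libraries above in 4 and below in 7, where 62.0% of all tested genes were separated, 31.1% above and 30.9% below. With 3 libraries a group, an exact permutation test of a single gene cannot give a two-sided p under 0.1.

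**Figure D2:**
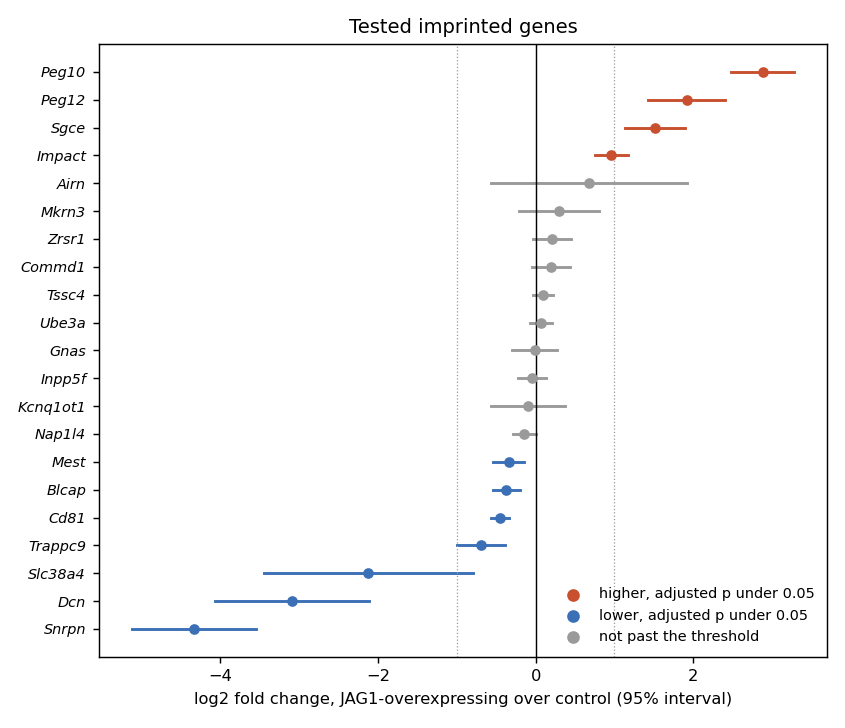
Log2 fold change of JAG1-overexpressing over control (horizontal axis) for the 21 tested imprinted genes, with 95% intervals from the quasi-likelihood fit; colors give the direction of genes past an adjusted p of 0.05 and dotted lines mark a 2-fold change. The values run from −4.33 for Snrpn to 2.88 for Peg10.

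**Figure D3:**
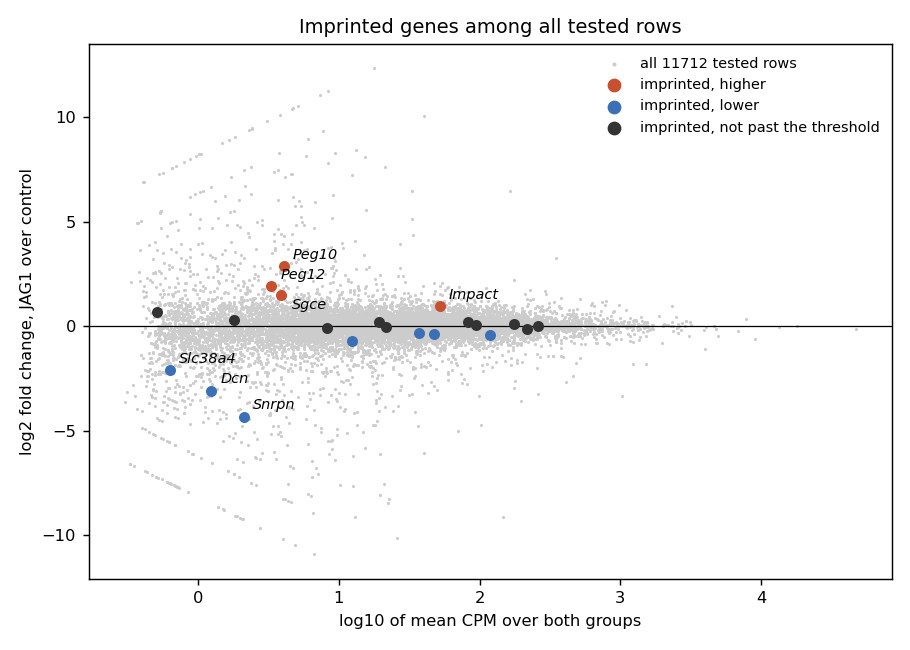
Log2 fold change (vertical axis) against log10 of the mean CPM over both groups (horizontal axis) for all 11712 tested genes in grey and for the imprinted genes in color. Of the labelled genes, Snrpn, Dcn, Slc38a4, Peg10, Peg12 and Sgce lie at low levels and Impact at a higher level.

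The largest fall among the 21 tested genes was in the Snrpn domain of chromosome 7, the mouse counterpart of the Prader-Willi and Angelman region. Snrpn (SNRPN in the tables, which write symbols in capitals), at chr7:59982495-60450177 on the minus strand, encodes a protein of the spliceosome and is transcribed from the paternal copy. It had 88, 61 and 88 reads in the control libraries and 5, 4 and 1 in the JAG1-overexpressing libraries. Every JAG1-overexpressing library was thus far under every control library. The level went from 4.08 ± 0.704 to 0.195 ± 0.117 CPM (SD, n = 3), so that log2 of the fold was −4.33 (SE 0.36, adjusted p = 1.61e-06). In JAG1-overexpressing libraries 3 reads equal 0.179 CPM on average, so the size of this fall rests on few reads. Snurf, which shares a start site and 216 exonic bases with Snrpn, had 93, 63 and 86 reads in control and 0 in every JAG1-overexpressing library, at least 23.2-fold lower against a limit of 3 reads per library. The control counts of the Snrpn and Snurf rows were close in each library, and reads from the bases they share cannot be told apart, so they are not separate evidence. Snhg14, the long noncoding RNA that runs on from Snrpn through snoRNA clusters and across Ube3a, was looked at after its values were seen. It had 24, 18 and 17 reads in control and 0 in every JAG1-overexpressing library, at least 5.65-fold lower (adjusted p = 0.000107). A second row that the annotation places in the same gene, C230091D08Rik, had 177, 191 and 142 reads in control and 191, 118 and 110 in JAG1-overexpressing libraries, a log2 fold change of −0.11 (95% interval −0.46 to 0.24).

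Of the other tested genes of the list in this domain, Peg12 rose and Mkrn3 and Ube3a did not pass the threshold. Peg12 (PEG12), at chr7:62461871-62464510, a retrogene related to Frat1 and known as paternally expressed, had 19, 31 and 30 reads in control and 98, 71 and 98 in JAG1-overexpressing libraries. The groups did not overlap, and Peg12 rose by a log2 fold change of 1.92 (SE 0.22, adjusted p = 2.42e-05), 3.77-fold. Mkrn3, a ubiquitin ligase whose gene lies next to Peg12, had between 27 and 37 reads in control and between 30 and 40 in JAG1-overexpressing libraries, a log2 fold change of 0.30 (95% interval −0.21 to 0.81, adjusted p = 0.292). Ube3a, the ubiquitin ligase that is maternally expressed in neurons and lies across from the end of Snhg14, was at 91.5 ± 3.51 CPM in control and 96.0 ± 6.34 CPM in JAG1-overexpressing cells (SD, n = 3), with a log2 ratio of 0.07 (95% interval −0.07 to 0.21). Atp10a, beyond Ube3a, rose by 0.45 (SE 0.09, adjusted p = 0.00138). Of the 20 tested genes that flank the domain, which lay up to 10.4 Mb away, 8 were higher and 0 were lower by edgeR, also at an unadjusted p under 0.05. Their median log2 value was 0.17, and that of chromosome 7 was −0.02. Gm7367, a row inside the domain that was looked at after its values were seen, fell by 0.24 on the log2 scale (adjusted p = 0.0328). Of 10 neuron markers, 6 were silent, among them Rbfox3, Snap25 and Syt1, and of the 3 tested Tubb3 and Stmn2 were lower and Map2 was higher. The summed level of the neuron markers was 100, 108 and 110 CPM in control, where Tubb3 led, and 59.9, 58.8 and 61.8 CPM in JAG1-overexpressing libraries, where Map2 led, and its part in the fall of Snrpn was not tested.

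The start regions of Snrpn and Peg12 are shown because these genes of the same domain moved in opposite directions. The sequences are those of RefSeq on GRCm38.p6, from 250 bases before to 50 after the start site, read 5′ to 3′ on the minus strand, at chr7:60005150-60005449 for the start that Snrpn shares with Snurf and at chr7:62464461-62464760 for Peg12. Capitals mark each CpG, the dinucleotide that carries DNA methylation.
Snrpn: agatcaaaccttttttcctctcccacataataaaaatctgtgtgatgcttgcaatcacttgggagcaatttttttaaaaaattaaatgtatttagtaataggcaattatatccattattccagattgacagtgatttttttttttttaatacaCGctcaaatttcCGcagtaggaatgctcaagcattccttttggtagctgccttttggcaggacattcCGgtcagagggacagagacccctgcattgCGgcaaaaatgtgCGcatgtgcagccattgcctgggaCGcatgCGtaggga
Peg12: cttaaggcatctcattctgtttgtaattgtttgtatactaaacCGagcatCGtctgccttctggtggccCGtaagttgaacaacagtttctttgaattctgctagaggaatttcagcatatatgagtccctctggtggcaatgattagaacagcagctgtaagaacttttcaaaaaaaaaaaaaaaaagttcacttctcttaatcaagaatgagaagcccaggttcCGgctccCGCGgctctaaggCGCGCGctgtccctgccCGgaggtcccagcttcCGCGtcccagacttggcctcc
Snrpn had 7 CpG in this window and Peg12 had 12, where the median over 32851 promoters of the same length was 7. RefSeq lists 3 further start regions of Snrpn upstream, with 2, 3 and 4 CpG. The motif TGCCGC, which the imprint maintaining protein ZFP57 binds when methylated, was searched on both strands. It was found 1 time in the Snrpn window, not in that of Peg12, and in 11.6% of all promoters. Of the 30 imprinted genes with a promoter in the table, 8 held TGCCGC in at least 1 start region, 19 held the SMAD3 motif GTCTG, found in 49.6% of all promoters, and 13 held the RBPJ motif TGGGAA, found in 25.6%. The 30 genes had 45 start regions. Their matches are counted by gene, while the shares of all promoters are by single start region, so the 2 are not alike. Several genes have more than 1 start region, which raises their chance of a match, and a match is not a binding site.

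In the Peg10 domain on chromosome 6 both expressed genes of the list rose. Peg10 (PEG10), at chr6:4747306-4760517, is a retrotransposon-derived gene needed for the placenta, and Sgce (SGCE), at chr6:4674350-4747204 on the opposite strand, encodes epsilon-sarcoglycan of the dystrophin complex. Both are paternally expressed, and 101 bases lie between their annotated starts. Peg10 had 16, 19 and 21 reads in control and 145, 109 and 111 in JAG1-overexpressing libraries. The groups were far apart, and the level went from 0.970 ± 0.160 to 7.16 ± 0.384 CPM (SD, n = 3). The rise of 2.88 on the log2 scale (SE 0.18, adjusted p = 1.93e-07) is 7.36-fold and is the largest among the 21 tested genes. Sgce had 39, 37 and 41 reads in control and 99, 92 and 101 in JAG1-overexpressing libraries. Its groups did not overlap either, and it rose by 1.51 (SE 0.17, adjusted p = 2.24e-05), 2.85-fold. Of the further genes of the domain, Asb4, a ubiquitin ligase adaptor, had 4, 9 and 3 reads in control and 0 in every JAG1-overexpressing library, at least 1.56-fold lower, and had too few reads to be tested. Pon2, an intracellular lactonase, rose by 0.34 (SE 0.07, adjusted p = 0.00107), and its neighbour Pon3 had a log2 fold change of −0.20 (95% interval −0.51 to 0.11). On the other side of Sgce, Casd1 fell by 0.40 on the log2 scale (SE 0.08, adjusted p = 0.00099), while the collagen gene Col1a2 rose from 3.35 to 50.7 CPM. Of the 16 tested genes nearest to the domain that are in no imprinted list, 7 were higher and 1 was lower, with a median of 0.29, while the median of chromosome 6 was 0.0233.

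**Figure D4:**
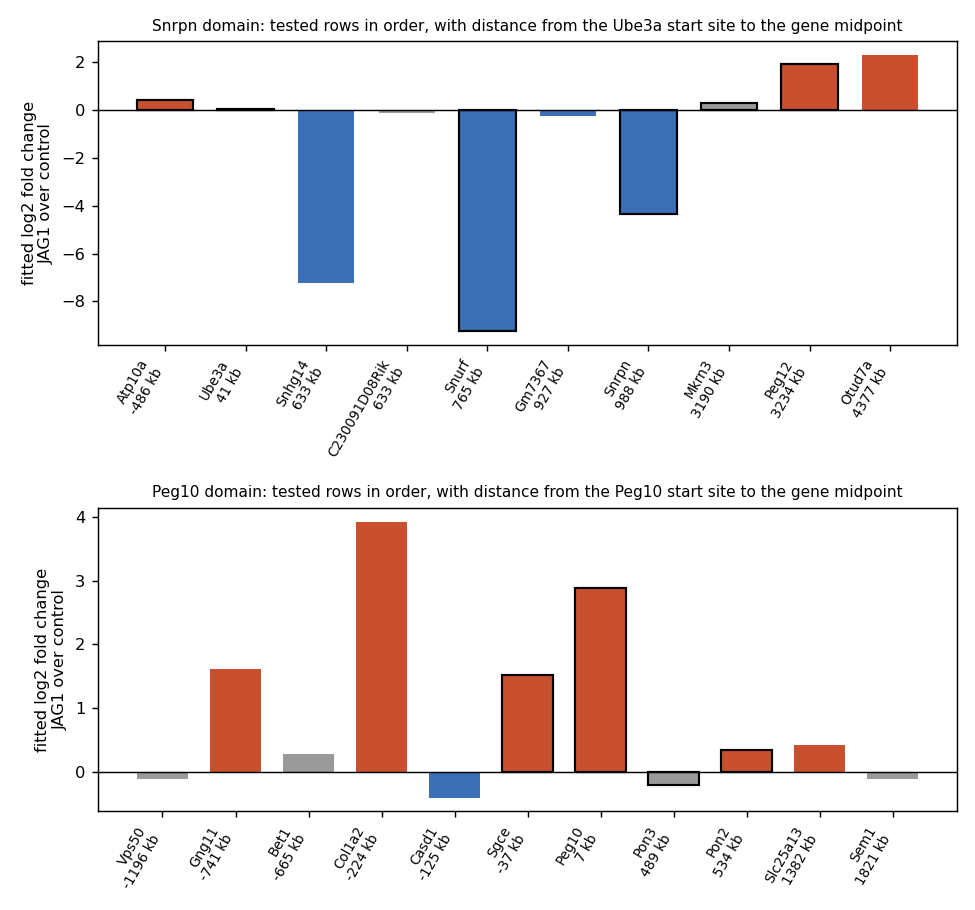
Fitted log2 fold change (vertical axis) of tested genes in and around the Snrpn domain (top) and the Peg10 domain (bottom), in chromosome order, with the distance in kb from the Ube3a or Peg10 start site to the middle of each gene. Red bars are higher, blue lower and grey not past the threshold, and black outlines mark genes of the imprinted lists; the bars of Snurf and Snhg14, with 0 reads in JAG1-overexpressing libraries, depend on the fit's prior count and are not measured sizes.

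Impact (IMPACT), on chromosome 18, inhibits the kinase GCN2 of the amino acid response and is paternally expressed in mice. It had 610, 653 and 779 reads in control and 1364, 994 and 1147 in JAG1-overexpressing libraries. Its level went from 35.3 ± 5.32 to 68.7 ± 0.879 CPM (SD, n = 3), with no overlap, a log2 fold change of 0.96 (SE 0.10, adjusted p = 7.11e-06). Among the called genes of the list of 40 that rose, it was the most abundant. Of the 20 nearest tested genes, 7 were higher and 5 lower.

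On distal chromosome 7, the domain of H19 and Kcnq1ot1 held abundant genes with small differences. Cd81, a tetraspanin of the cell surface, fell from 136 ± 3.17 to 100 ± 3.07 CPM (SD, n = 3), by 0.45 on the log2 scale (SE 0.05, adjusted p = 2.80e-05). Tssc4, which lies next to Cd81 and encodes a splicing factor of the U5 particle, was at 170 ± 10.2 CPM in control and 181 ± 4.35 CPM in JAG1-overexpressing cells (log2 fold change 0.09, 95% interval −0.03 to 0.22, and 0.14 with an adjusted p of 0.041 without control replicate 1). The histone chaperone Nap1l4 had a log2 fold change of −0.15 (95% interval −0.29 to 0.00079, or −0.22 with an adjusted p of 0.00646 without JAG1-overexpressing replicate 2), and Kcnq1ot1, the noncoding RNA that silences the domain on the paternal copy, of −0.10 (95% interval −0.57 to 0.38). The reads of Kcnq1ot1 differed within the groups, with 223, 154 and 117 in control and 192, 118 and 99 in JAG1-overexpressing libraries. Kcnq1, which it overlaps, was silent. Among further genes of the domain, Slc22a18, a membrane transporter, had 38, 46 and 37 reads in control and 0, 4 and 0 in JAG1-overexpressing libraries. It was lower with a fitted log2 value of −4.61 (SE 0.62, adjusted p = 7.79e-05), or −3.94 without JAG1-overexpressing replicate 1. Both rest on 4 reads in a single library and are not measured sizes. Without replicate 2 the JAG1-overexpressing libraries were at 0 reads, at least 12.6-fold lower against a limit of 3 reads per library. Osbpl5, an oxysterol binding protein, fell by 0.22 and Tnfrsf23, a decoy receptor, by 0.63 on the log2 scale, with adjusted p-values of 0.00829 and 0.0127 from the same test.

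The imprinted genes on chromosome 15 lay among genes that were mostly lower, the median log2 fold change of the 459 tested genes of that chromosome being −0.53. Slc38a4 (SLC38A4), at chr15:96994816-97055956 on the minus strand, is an amino acid transporter of liver and placenta. It had 20, 26 and 14 reads in control and 9, 3 and 0 in JAG1-overexpressing libraries, and fell by 2.12 on the log2 scale (SE 0.60, adjusted p = 0.0116). The adjusted p was 0.0511 with control replicate 2 left out, and with JAG1-overexpressing replicate 1 left out, 3 and 0 reads remained, so the fitted value of −3.32 is not a measured size. Of the 20 tested genes nearest to Slc38a4, 18 were lower and 0 higher by edgeR, also at an unadjusted p under 0.05, and the median was −0.81. Trappc9, a subunit of a vesicle tethering complex, had 304, 283 and 294 reads in control and 189, 168 and 122 in JAG1-overexpressing libraries, and fell by 0.69 on the log2 scale (SE 0.14, adjusted p = 0.00133). Its neighbours Ago2, the argonaute protein of RNA silencing, and Chrac1, a chromatin remodelling subunit, fell by 0.79 and 0.34 on the log2 scale. Peg13, a noncoding RNA that is transcribed within Trappc9 from the paternal copy, moved the other way. It had 29, 41 and 36 reads in control and 83, 52 and 50 in JAG1-overexpressing libraries, with no overlap, and rose by 0.97 on the log2 scale (SE 0.22, adjusted p = 0.00289). Of the 20 nearest tested genes outside the imprinted lists, 3 were higher and 13 lower, with a median of −0.49. The part of the chromosome in the falls of Slc38a4 and Trappc9 was not tested.

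Dcn (DCN), at chr10:97479500-97518163 on the plus strand, encodes decorin, a proteoglycan of connective tissue that binds collagen and TGF-β, and is imprinted in the mouse placenta. It had 44, 32 and 53 reads in control and 5, 7 and 1 in JAG1-overexpressing libraries. The groups did not overlap. The level went from 2.22 ± 0.529 to 0.264 ± 0.211 CPM (SD, n = 3), and Dcn fell by 3.09 on the log2 scale (SE 0.44, adjusted p = 0.000127). Without JAG1-overexpressing replicate 2, 5 and 1 reads of Dcn remained in that group, so the fitted fall of 3.71 is not a measured size. Markers of fibroblasts and mural cells moved in both directions. Of 9 such genes, Lum and Rgs5 were silent, 5 were lower, Col1a2 was higher and Pdgfra did not pass the threshold. Col1a2 rose by 3.92 on the log2 scale (SE 0.13, adjusted p = 1.42e-09). Acta2, the most abundant in control at 310 CPM, fell by 2.98 on the log2 scale (SE 0.06, adjusted p = 5.31e-11), Col3a1 fell by 1.70, Pdgfrb fell by 1.66, and Col1a1, the most abundant in JAG1-overexpressing cells, fell by 0.53 (SE 0.06, adjusted p = 3.50e-05). Their summed level was 821, 832 and 856 CPM in control and 355, 364 and 317 CPM in JAG1-overexpressing libraries, and their part in the fall of Dcn was not tested. Of the markers of other cells, 7 of 9 for oligodendrocytes, 5 of 7 for endothelium and 3 of 8 for microglia were silent. The oligodendrocyte markers, led by Cnp, summed to between 2.14 and 3.33 CPM in control and between 0.668 and 1.25 CPM in JAG1-overexpressing libraries. The endothelial markers summed to between 1.04 and 1.93 CPM in control and between 4.44 and 4.92 CPM in JAG1-overexpressing libraries, nearly all of it Flt1, and the microglia markers to between 5.75 and 6.12 CPM and between 3.58 and 4.61 CPM.

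The remaining tested genes differed little or lay among overlapping genes. Mest, a hydrolase-like protein that is paternally expressed, had 821, 725 and 845 reads in control and 679, 414 and 576 in JAG1-overexpressing libraries, and fell by 0.34 on the log2 scale (SE 0.09, adjusted p = 0.00723). Copg2, a coat protein gene on the other strand, overlaps the end of Mest by 912 bases, and its row held 887, 788 and 893 reads in control and 719, 452 and 623 in JAG1-overexpressing libraries, close to those of Mest in each. Whether the counting used the strand is not given in the sources used here, so the reads of Mest and Copg2 cannot be told apart. Exons on opposite strands also overlap between Gnas and Nespas (988 bases), Commd1 and Zrsr1 (412 bases) and Ube3a and Snhg14 (1803 bases). Blcap, a small membrane protein whose intron holds Nnat, went from 53.4 ± 4.01 to 41.2 ± 2.60 CPM (SD, n = 3), a fall of 0.37 on the log2 scale (SE 0.08, adjusted p = 0.00177). Gnas, which encodes the stimulatory G protein alpha subunit and whose alternative first exons share 1 end, was the most abundant gene of the list in both groups, at 263 ± 57.3 CPM and 261 ± 22.6 CPM (SD, n = 3), with a log2 fold change of −0.01 (95% interval −0.30 to 0.27). Without control replicate 1, in which Gnas was lowest, the value was −0.18 (adjusted p = 0.039). Its antisense RNA Nespas, listed as Gnasas1, had 36, 17 and 17 reads in control and 10, 5 and 1 in JAG1-overexpressing libraries, and fell by 1.92 on the log2 scale (SE 0.53, adjusted p = 0.00945). Without JAG1-overexpressing replicate 1, 5 and 1 reads of Nespas remained in that group, so the fitted fall of 2.58 is not a measured size. Commd1, a copper metabolism gene, and Zrsr1, a retrogene within it on the other strand, had log2 fold changes of 0.20 (95% interval −0.04 to 0.44) and 0.21 (95% interval −0.03 to 0.44). Commd1 was past the threshold without control replicate 3 (0.31, adjusted p = 0.0154) and Zrsr1 without control replicate 1 (0.27, adjusted p just under the threshold). With a block for the replicate number in the fit, Commd1 also passed (0.211, adjusted p = 0.0173, edgeR). The phosphatase gene Inpp5f, of which a single variant is imprinted, was at 21.9 ± 1.17 CPM in control and 21.2 ± 0.992 CPM in JAG1-overexpressing cells (SD, n = 3; log2 fold change −0.05, 95% interval −0.23 to 0.14). Airn, the noncoding RNA antisense to Igf2r, was near the limit of detection with between 3 and 16 reads a library, and had a log2 fold change of 0.68 (95% interval −0.57 to 1.92).

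A further list of 42 imprinted genes written from general knowledge gave 41 rows, of which 18 were silent, 3 low and 20 tested. Of these 20, 7 were higher and 11 lower, or 90.0% called beside 55.1% of all tested genes, and the median log2 value was −0.28. In the first list of imprinted genes, 52.4% of the tested genes were called. The further list was chosen with earlier results of these data known. Its rows Snurf and Copg2 are not separate evidence from Snrpn and Mest of the first list. The share called in this further list therefore does not show that imprinted genes were called more often than other genes. The 5 largest rises were those of Cdh15, Cobl, Gab1, Peg13 and Mcts2. Cdh15, a cadherin of muscle, had 0 reads in every control library and 29, 24 and 14 in JAG1-overexpressing libraries, at least 8.47-fold higher against a limit of 3 reads per library (adjusted p = 8.92e-05). Cobl, an actin nucleator next to Grb10, had 4, 8 and 10 reads in control and 173, 123 and 100 in JAG1-overexpressing libraries, and rose by 4.32 on the log2 scale (SE 0.28, adjusted p = 2.48e-07). Its neighbour Grb10, an adaptor that dampens insulin signaling, had at most 4 reads. Gab1, an adaptor of receptor tyrosine kinases, rose by 1.32 (SE 0.25, adjusted p = 0.0011). Mcts2, a retrogene that shares sequence with its parent Mcts1, so that its reads are uncertain, rose by 0.69, while H13, the signal peptide peptidase gene around it, fell by 0.37 on the log2 scale. The 5 largest falls by fitted value were those of Snurf, Sfmbt2, Slc22a18, Nespas and Ago2. Sfmbt2, a Polycomb group gene, had 25, 24 and 32 reads in control and 0 in every JAG1-overexpressing library, at least 7.80-fold lower (adjusted p = 4.22e-05). Igf2r, the receptor that clears IGF2, had a log2 fold change of 0.09 (95% interval −0.18 to 0.36).

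Proteins that set or keep imprints were taken from a list of 24 genes, of which 2 were silent, Ctcfl was low and 21 were tested, with 4 higher and 8 lower, or 57.1% beside 55.1% of all tested genes. The maintenance methyltransferase Dnmt1 was at 192 ± 13.7 CPM and 193 ± 8.74 CPM (SD, n = 3), with a log2 ratio of 0.01 (95% interval −0.13 to 0.14). Both de novo methyltransferases fell, Dnmt3b by 1.39 on the log2 scale (SE 0.16, adjusted p = 1.97e-05) and Dnmt3a by 0.45 (SE 0.10, adjusted p = 0.0021). Dnmt3b had 142, 155 and 169 reads in control and 63, 50 and 44 in JAG1-overexpressing libraries. Tet1, which oxidizes methylated cytosine, had 27, 28 and 32 reads in control and 2, 2 and 0 in JAG1-overexpressing libraries, and was lower (adjusted p = 4.59e-05). All 3 lay under the limit of 3 reads per library, against which the control level was 8.38-fold higher. Its relatives Tet2 and Tet3 had log2 fold changes of 0.34 (95% interval 0.03 to 0.66, adjusted p = 0.0641) and −0.18 (95% interval −0.40 to 0.03). Of the machinery that reads the methylated control regions, Zfp57 had between 3 and 17 reads a library with a log2 fold change of −0.79 (95% interval −1.99 to 0.40), and Trim28, the cofactor that it recruits, fell by 0.46 on the log2 scale (SE 0.05, adjusted p = 1.46e-05). Zfp445 and Uhrf1, also of this list, fell by 0.24 and 0.22 on the log2 scale (adjusted p = 0.0106 and 0.00287, edgeR). Atrx, a chromatin remodeller, and Arid4b fell by 0.50 and 0.43 on the log2 scale (adjusted p = 0.000847 and 0.000287). The 4 that rose were Hells, Kdm1b, Setdb1 and Ehmt2, by 0.88, 0.38, 0.36 and 0.18 on the log2 scale. The call of Ehmt2 was lost without control replicate 2 or 3 or JAG1-overexpressing replicate 2 or 3, with adjusted p-values between 0.0525 and 0.0942. Hells, a remodeller needed for DNA methylation, had 5223, 5074 and 4903 reads in control and 10056, 6668 and 7972 in JAG1-overexpressing libraries (SE 0.05, adjusted p = 1.06e-07), and it lies on chromosome 19, whose 422 tested genes had a median log2 fold change of 0.61. Dnmt3l and Dppa3, known from germ cells and early embryos, were silent.

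**Figure D5:**
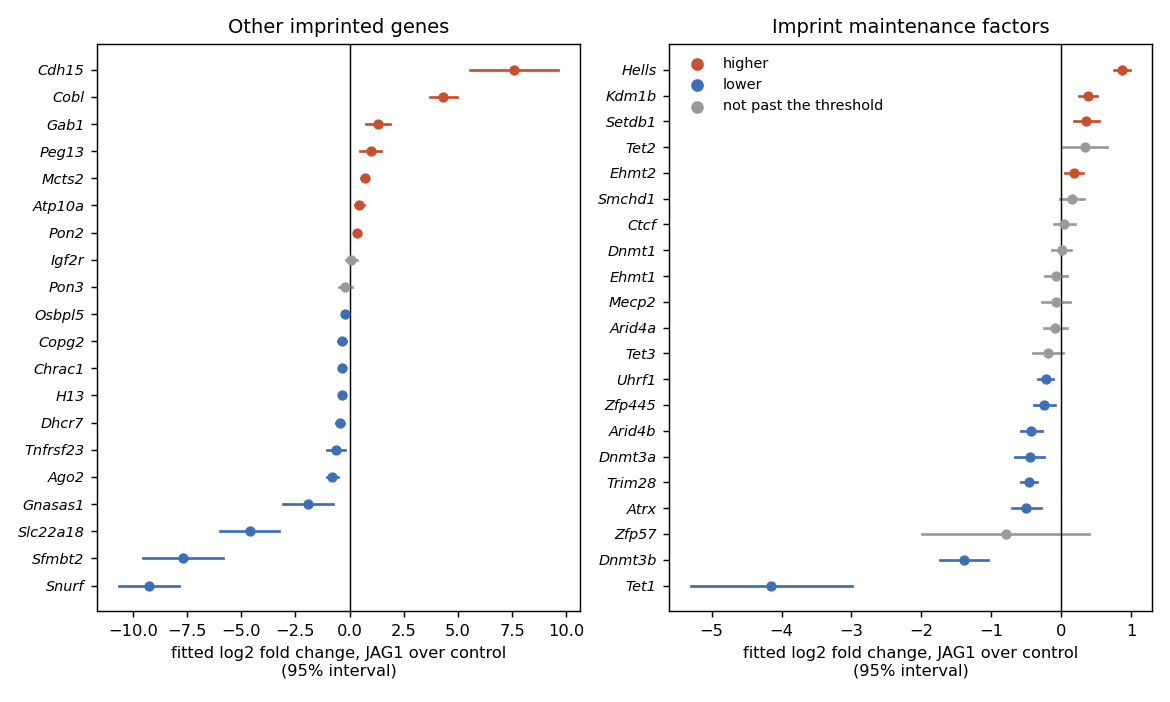
Fitted log2 fold change of JAG1-overexpressing over control with 95% intervals (horizontal axes) for the tested genes of the further imprinted list (left, 20 genes) and of the imprint maintenance list (right, 21 genes), colored by direction where the adjusted p is under 0.05. The fitted values of Snurf, Sfmbt2 and Cdh15, with a group at 0 reads, depend on the fit's prior count and are not measured sizes, nor are those of Tet1 and Slc22a18, with few reads in JAG1-overexpressing libraries, and Gnasas1 is the annotation's name of Nespas.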

How the data were processed

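RNA of 3 control and 3 JAG1-overexpressing libraries was measured by QuantSeq 3' mRNA sequencing. For each library the authors deposited raw read counts of 23282 gene symbols. Beside each count stands a deposited log2 normalized value. Bowtie2, bedtools and edgeR are named in the submitters' processing notes, with the builds GRCm38 and mm10; versions, annotation, counting by strand and the authors' normalization are not given in the sources used here. The members and gene lists were chosen with earlier results of these data known, and lists were written from general knowledge.

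In R 4.3.3, edgeR 4.0.16 kept 11712 genes (filterByExpr, minimum count 10), scaled libraries by TMM and compared the 2 groups by its quasi-likelihood test without covariates. Benjamini-Hochberg adjustment ran over these genes, with a threshold of 0.05. Standard errors and 95% intervals came from the quasi-likelihood F statistic. CPM used TMM-normalized library sizes. Totals ran from 14341634 to 20489062 counts, so 3 counts, the limit of a silent gene, equal between 0.148 and 0.206 CPM. Folds against a group at 0 were computed as lower bounds, against the mean over its libraries of the level that 3 counts give. Neighbours were the 10 nearest tested genes on each side outside the imprinted lists, where the chromosome held as many. All members are accounted for by name; those past the threshold and at least 2-fold, and at most 5 rises and 5 falls of each further list, have full values, and genes of the same domain or protein family beside them were added after their values were seen. Gene symbols were matched to RefSeq of GRCm38.p6 (22058 by symbol, 1090 by synonym), and overlaps came from GENCODE release M21.

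Alternatives were DESeq2 1.42.0, library size alone, no filter, limma-voom and limma on the deposited log2 values (limma 3.58.1), a replicate block, fold limits, other limits for a silent gene, and leaving out each library. No pair of libraries of a group agreed within counting error.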

Additional observations from a re-analysis of the deposited data

How the results depend on the processing

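The 11 calls among the imprinted genes were shared by DESeq2, library size alone, limma-voom and limma on the deposited log2 values, and testing without a filter added Asb4. With a fold limit of 1.5 beside the adjusted p, 4 imprinted genes were lower, and 3 with a limit of 2. In the further imprinted list the lower genes numbered 6 at 1.5-fold and 4 at 2-fold, and the higher ones 3 at 2-fold. Of the maintenance genes 1 was higher at 1.5-fold and 0 at 2-fold by edgeR, the largest rise being 0.88, and 2 were lower at either limit. With a silent gene set at 0 reads everywhere, 6 were silent, and 18 at up to 10 reads. The call of Ehmt2 was lost with DESeq2 (adjusted p = 0.0533) and without a filter (adjusted p = 0.055). Near 0, Gnas changed sign, to 0.002 with library size alone, 0.00884 with limma-voom, 0.00167 with the deposited log2 values and 0.0092 with the replicate block. Leaving out each library gave −0.178 to 0.121 for Gnas, −0.288 to 0.146 for Kcnq1ot1 and −0.0844 to 0.000121 for Inpp5f. It gave 4 to 6 higher and 6 to 8 lower imprinted genes, 7 and 11 in the further list, and 3 to 4 higher and 8 to 9 lower maintenance genes. Slc38a4 was lost without control replicate 2. Why these values moved was not tested.

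The labels give both groups replicate numbers 1 to 3. Deviations from the group means correlated by 0.27, 0.0697 and 0.19 in same-numbered libraries, and JAG1-overexpressing replicate 2 correlated best with control replicate 3 (0.0732), so pairing by number was not established, and a shared batch was not tested. With the replicate block 12 imprinted genes were called in place of 11, Commd1 being added (0.211 on the log2 scale, adjusted p = 0.0173). Depth limits genes at a few reads, such as Airn and Meg3, for which a difference may not have been detectable.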

Other observations

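Neighbours of the silent imprinted domains were taken from tested genes only, so untested genes between them were passed over, and those of Peg3 and Plagl1 lay up to 5.94 and 4.82 Mb away. Of the 20 tested genes nearest to the Peg3 domain, 2 were higher and 12 lower in JAG1-overexpressing cells, with a median log2 fold change of −0.466, where the median of chromosome 7 was −0.0202. Around the Dlk1-Dio3 domain 4 of 20 were higher and 6 lower, with a median of 0.0591, and around Plagl1 4 were higher and 6 lower. Near the Peg10 domain, Gng11, a G protein gamma subunit gene that was chosen after its values were seen, had 28, 22 and 33 reads in control and 82, 69 and 73 in JAG1-overexpressing libraries, and rose by 1.62 on the log2 scale (SE 0.20, adjusted p = 3.83e-05, edgeR).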
